A study of Mus musculus with 5 samples.

Results

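E14 mouse embryonic stem cells (ESCs), a line that self-renews in the naive state of pluripotency, were compared in 2 culture conditions by RNA sequencing. The first was leukaemia inhibitory factor (LIF) with bone morphogenetic protein 4 (BMP-4) at 10 ng/ml, given in a serum-free basal medium. The labels name both ESGRO Complete Basal Medium and N2B27 as such media and do not say which of them this library used, nor its LIF dose. The second condition was LIF at 1000 U/ml with 15% fetal bovine serum in DMEM, on gelatin. The study set BMP signalling in the naive state beside that in the primed state. Its other 3 libraries were epiblast stem cells derived from ESCs (EpiSCs), kept in N2B27 with FGF2 and Activin A: 1 without BMP-4, 1 after 1.5 h and 1 after 24 h with 10 ng/ml of it. Of 23951 genes in the table, 10701 had a mean of at least 1 FPKM (fragments per kilobase of transcript, scaled to the fragments mapped in the library) over the 2 ESC libraries and an OK status in both, and all of these were compared. Each condition held 1 library, so no difference has a replicate check and no p-value is given. BMP-4 and the medium changed together, and their parts in any difference cannot be told apart.

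LIF acts through its receptor and gp130 on JAK kinases and STAT3, which holds mouse ESCs in self-renewal. BMP ligands bind receptor kinases that phosphorylate Smad1 and Smad5, which join Smad4 and switch on genes such as the Id family, inhibitors of basic helix-loop-helix transcription factors. Serum holds BMP activity, and in serum-free medium BMP-4 is a known partner of LIF in keeping mouse ESCs undifferentiated.

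Differences are given as log2(FPKM + 1) with BMP-4 minus log2(FPKM + 1) with serum, and folds are ratios of FPKM + 1, which understates the change of low genes. "Higher" and "lower" in counts mean at least 2-fold with BMP-4. By that measure 331 of 10701 genes were higher (3.09%) and 147 were lower (1.37%), while 85.8% lay within 1.5-fold, and the median difference was -0.02. Counts given below for a list are to be read beside these shares. The range in parentheses after a level is the interval deposited with it, which covers the uncertainty of the estimate in that library and not the spread between cultures. These intervals lay apart for 18 of the higher genes (0.168% of genes compared) and for 4 of the lower genes (0.0374%). They overlapped for every other gene named below unless the text says otherwise. Small RNA genes made up 39 of the genes beyond 2-fold although only 61 were compared, and 33 of the 39 stood under 0.01 FPKM in 1 library. Without them 314 genes were higher and 125 lower. The excess of higher genes lay mainly at low levels: from 1 to 5 FPKM on average 156 genes were higher and 49 lower, against 14 higher and 16 lower at 100 FPKM or more. The median difference also fell with level. It was 0.06 from 1 to 5 FPKM, -0.06 from 20 to 100 FPKM and -0.11 at 100 FPKM or more. At 100 FPKM or more, 299 of 986 genes had a positive difference, so negative differences were common among abundant genes.

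**Figure D1:**
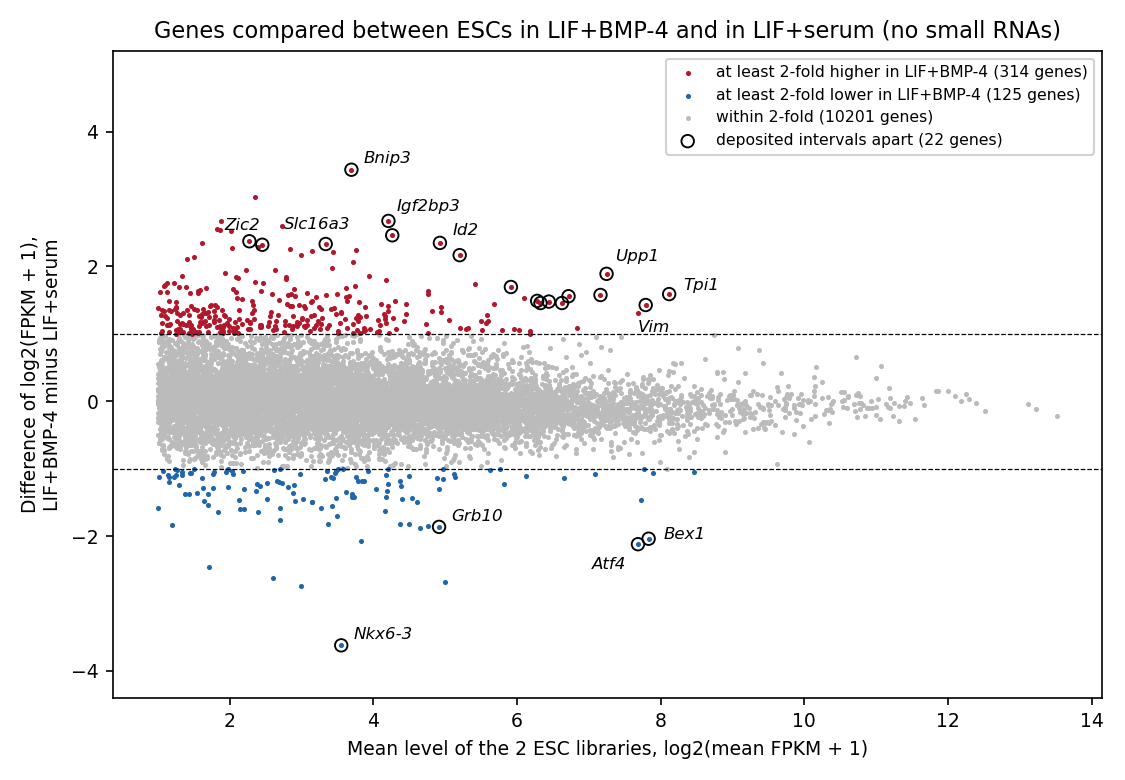
Each point is a gene other than a small RNA, placed by the mean level of the ESC libraries (log2 of mean FPKM + 1) and by the difference of log2(FPKM + 1), LIF+BMP-4 minus LIF+serum, with dashed lines at 2-fold. Red and blue points are the 314 higher and 125 lower genes, and rings mark the 22 genes with deposited intervals apart, such as Bnip3 and Id2 above and Atf4, Bex1, Grb10 and Nkx6-3 below.

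Depth in reads is not given by FPKM values. Among 2332 genes under 0.5 FPKM in both libraries the most frequent ratio of BMP-4 to serum values, shared by 404 of them, was 0.953, so 1 read was worth about the same in each library. Deposited intervals were wide. For genes of 1 to 5 FPKM the upper bound lay a median of 113% above the value in each library, and for genes of 100 to 1000 FPKM 45.8% above it with BMP-4 and 45.7% with serum. Markers matched the ESC label in both conditions. All 8 naive markers were at 1 FPKM or more, with a summed level of 3070 FPKM with BMP-4 and 2884 FPKM with serum. Of 8 fibroblast or feeder markers, which summed to 4.98 FPKM with BMP-4 and 3.14 FPKM with serum, only Thy1 reached 1 FPKM, and Col3a1, Postn, Lum and Dcn were listed at 0 in both libraries. Primitive endoderm markers (5) summed to 1.28 FPKM with BMP-4 and 1.40 FPKM with serum, mesoderm markers (5) to 1.75 FPKM with BMP-4 and 1.84 FPKM with serum, and trophoblast markers (4) to 0.691 FPKM with BMP-4 and 0.342 FPKM with serum. The 4 neural markers summed to 9.02 FPKM with BMP-4 and 3.19 FPKM with serum, through Pax6 and Sox1, while Neurog2 was listed at 0 in both.

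Among the genes of the BMP pathway, the clearest difference lay in Id2. Id2 (mm9 chromosome 12, 25778664 to 25780957) stood at 49.9 FPKM (18.6 to 81.2) with BMP-4 and at 8.98 FPKM (0.190 to 17.8) with serum. That is 5.10-fold higher with intervals apart. The other Id genes differed less: Id1 stood at 101 FPKM (41.6 to 161) with BMP-4 and 70.1 FPKM (25.8 to 114) with serum, and Id3 at 40.0 FPKM (11.5 to 68.5) with BMP-4 and 24.4 FPKM (4.87 to 43.9) with serum. Id4 was low at 1.78 FPKM with BMP-4 and 1.72 FPKM with serum. Id1 therefore remained the most abundant Id gene in both libraries, while Id2 lay above Id3 with BMP-4 and below it with serum, with intervals that overlapped between these genes. The Id2 promoter is shown because this gene carries the difference. It is the stretch of 250 bases before the RefSeq start (GRCm38.p6, chr12:25096093-25096342, minus strand), with capitals at the match to GGCGCC, the core of a BMP response element.
Id2: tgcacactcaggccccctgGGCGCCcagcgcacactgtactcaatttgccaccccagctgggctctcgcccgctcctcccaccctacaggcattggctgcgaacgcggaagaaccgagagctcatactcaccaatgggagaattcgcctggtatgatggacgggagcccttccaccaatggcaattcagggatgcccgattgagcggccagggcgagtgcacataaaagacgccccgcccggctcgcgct
The match begins 231 bases before the start. Read on both strands of windows from 250 bases before to 50 bases after the start, GGCGCC occurred in 25.6% of the 8083 compared genes that had a window, in 3 of 4 BMP targets with one, and in 16.9% of windows of higher genes and 17.7% of those of lower genes. A match describes letters and is no evidence of binding. Here and below, the windows of a list are those of all its compared members, whether or not they differed. The share of a list with a motif therefore does not bear on the difference between the cultures.

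Of 24 listed BMP targets 11 were compared, with 2 higher, 2 lower and a median of 0.03. The higher targets were Id2 and Dusp9, a phosphatase that inactivates ERK, which stood at 73.8 FPKM (37.6 to 110) with BMP-4 and 26.6 FPKM (10.7 to 42.5) with serum, 2.71-fold higher. The lower targets were Hes1, a transcriptional repressor downstream of Notch, at 21.3 FPKM with BMP-4 and 46.1 FPKM with serum, and Fst, which encodes the Activin and BMP binding protein follistatin, at 1.31 FPKM with BMP-4 and 5.40 FPKM with serum. Tsc22d1, a leucine zipper factor induced by TGF-beta, stood at 66.6 FPKM with BMP-4 and 117 FPKM with serum. The inhibitory Smad genes gave no 2-fold difference: Smad7 stood at 15.7 FPKM with BMP-4 and 19.3 FPKM with serum, and Smad6 at 0.823 FPKM with BMP-4 and 0.550 FPKM with serum, below the mean for comparison.

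Receptors and Smads lay close together in the 2 cultures. Of 13 compared, 0 were higher and 0 lower, with a median of 0.11 (0.00 at a mean of at least 5 FPKM). The type I receptor gene Bmpr1a stood at 11.8 FPKM with BMP-4 and 11.1 FPKM with serum, Smad1 at 5.14 FPKM with BMP-4 and 6.73 FPKM with serum, Smad5 at 5.28 FPKM with BMP-4 and 4.82 FPKM with serum and Smad4 at 19.8 FPKM with BMP-4 and 20.9 FPKM with serum. Of 16 listed ligands 4 were compared, with 0 higher, 0 lower and a median of -0.27 (-0.15 at a mean of at least 5 FPKM). The cells' own Bmp4 was at 19.9 FPKM with added BMP-4 and 19.5 FPKM with serum. The ESCs thus transcribed Bmp4 in both conditions, whereas untreated EpiSCs had 0.263 FPKM. Of 6 compared extracellular inhibitors 1 was higher, Fstl1, and 1 was lower, Fst, with a median of -0.10 that became 0.97 over the fewer genes left when the mean had to reach 5 FPKM. Fstl1, a secreted follistatin-like glycoprotein whose transcripts share sequence with another gene, stood at 39.9 FPKM (18.8 to 60.9) with BMP-4 and 12.2 FPKM (4.12 to 20.2) with serum. Twsg1, a BMP binding protein that acts with chordin, stood at 16.6 FPKM with BMP-4 and 7.97 FPKM with serum, just within 2-fold.

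**Figure D2:**
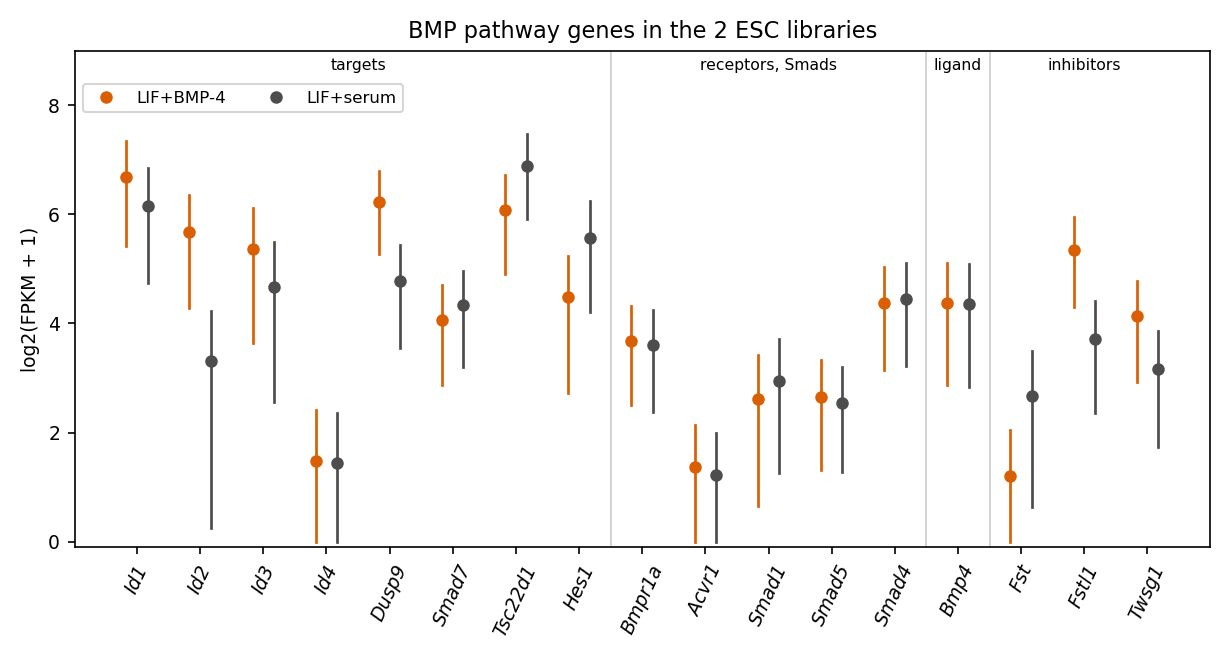
Levels of BMP targets, receptors and Smads, the ligand gene Bmp4 and extracellular inhibitors as log2(FPKM + 1) in ESCs in LIF+BMP-4 (orange, left of each pair) and LIF+serum (grey, right), 1 library each, with bars for the deposited intervals. The intervals of Id2 (49.9 FPKM with BMP-4 and 8.98 FPKM with serum) lie apart, while those of Bmpr1a (11.8 FPKM with BMP-4 and 11.1 FPKM with serum) and Bmp4 (19.9 FPKM with BMP-4 and 19.5 FPKM with serum) nearly coincide.

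The pluripotency network was nearly level between the cultures. Of 28 naive pluripotency genes 0 were higher and 1 was lower, with a median of -0.13, and of 19 shared pluripotency genes 0 were higher or lower, with a median of -0.01. The lower gene was Tfcp2l1, a transcription factor downstream of LIF, at 19.8 FPKM with BMP-4 and 40.7 FPKM with serum, at the 2-fold limit. Esrrb (92.1 FPKM with BMP-4 and 132 FPKM with serum) and Nr0b1 (62.8 FPKM with BMP-4 and 103 FPKM with serum), nuclear receptors of the naive network, also had lower values with BMP-4. In the other direction lay Fbxo15, an F-box protein gene of ESCs, at 229 FPKM with BMP-4 and 118 FPKM with serum, Dppa3 at 6.28 FPKM with BMP-4 and 3.03 FPKM with serum and Dppa2 at 61.7 FPKM with BMP-4 and 37.4 FPKM with serum, each under 2-fold. The core factor Sox2 stood at 243 FPKM with BMP-4 and 189 FPKM with serum. Tdgf1, which encodes the Nodal co-receptor Cripto, stood at 198 FPKM with BMP-4 and 116 FPKM with serum.

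Genes of the LIF and STAT3 pathway had a median of -0.00, with 1 of 22 higher and 1 lower. The receptor gene Lifr stood at 11.2 FPKM with BMP-4 and 10.9 FPKM with serum, Stat3 at 27.9 FPKM with BMP-4 and 27.1 FPKM with serum and the feedback inhibitor gene Socs3 at 26.13 FPKM with BMP-4 and 22.95 FPKM with serum. The higher gene was Ier3, an immediate early gene, at 10.9 FPKM with BMP-4 and 1.48 FPKM with serum, and the lower one was Tfcp2l1. Myc, a target of LIF in ESCs, stood at 16.9 FPKM with BMP-4 and 28.3 FPKM with serum. In the Nodal and Activin pathway 1 of 15 genes was higher, 0 were lower, 7 had a positive difference and the median was -0.11. The Nodal targets Lefty2 (4.04 FPKM with BMP-4 and 8.05 FPKM with serum) and Pmepa1 (4.26 FPKM with BMP-4 and 8.43 FPKM with serum) had lower values with BMP-4 but stayed within 2-fold on this scale. In the FGF and ERK pathway 4 of 24 genes were higher (16.7%, against 3.09% over all genes) and 1 was lower (4.17%, against 1.37%). The median was 0.07. Besides Ier3 and Dusp9 the higher genes were Fgf1 (2.46 FPKM with BMP-4 and 0.323 FPKM with serum) and the phosphatase gene Dusp14 (4.02 FPKM with BMP-4 and 1.49 FPKM with serum), and the lower one was the FGF carrier gene Fgfbp1 (0.627 FPKM with BMP-4 and 3.18 FPKM with serum). Fgf4, the main FGF gene of ESCs, stood at 82.4 FPKM with BMP-4 and 55.2 FPKM with serum. The ERK-induced genes Dusp6 (25.9 FPKM with BMP-4 and 35.8 FPKM with serum) and Etv4 (21.2 FPKM with BMP-4 and 34.0 FPKM with serum) had lower values with BMP-4.

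Most genes of lipid synthesis had higher values with BMP-4. Sterol synthesis turns acetyl-CoA into cholesterol through mevalonate, squalene and lanosterol, and its genes are induced by SREBP factors when cells are short of sterols. Of 30 compared genes of sterol synthesis and control 8 were higher and 0 lower, 28 had a positive difference and the median was 0.80, against -0.02 over all genes. Among the early enzymes, mevalonate kinase Mvk stood at 20.2 FPKM with BMP-4 and 7.78 FPKM with serum. Pmvk stood at 83.1 FPKM with BMP-4 and 39.2 FPKM with serum and Mvd at 20.1 FPKM with BMP-4 and 9.02 FPKM with serum. Fdps, farnesyl diphosphate synthase, stood at 291 FPKM with BMP-4 and 117 FPKM with serum, with transcripts that share sequence with other genes. In the later steps, squalene epoxidase Sqle stood at 41.8 FPKM with BMP-4 and 20.9 FPKM with serum, Nsdhl at 20.4 FPKM with BMP-4 and 7.08 FPKM with serum and the last reductase of the Kandutsch-Russell route, Dhcr7, at 17.2 FPKM with BMP-4 and 5.54 FPKM with serum. Tm7sf2, a sterol reductase whose transcripts overlap another gene, stood at 9.68 FPKM with BMP-4 and 2.05 FPKM with serum. Control genes followed in part: the SREBP retention gene Insig1 stood at 39.4 FPKM with BMP-4 and 15.0 FPKM with serum, while Insig2 stood at 7.36 FPKM with BMP-4 and 7.32 FPKM with serum. Abca1, a cholesterol export gene induced by sterol load, lay the other way, at 2.19 FPKM with BMP-4 and 3.64 FPKM with serum. Hmgcs1 could not be read, since it is placed on an unplaced contig of chromosome 13 and listed at 0 in all 5 libraries.

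Promoters of Mvd and Nsdhl are shown as examples of this list, with CCAAT boxes in capitals, which read ATTGG on the other strand (GRCm38.p6, 250 bases before the start; Mvd at chr8:122443423-122443672, minus strand, and Nsdhl at chrX:72918271-72918520, plus strand).
Mvd: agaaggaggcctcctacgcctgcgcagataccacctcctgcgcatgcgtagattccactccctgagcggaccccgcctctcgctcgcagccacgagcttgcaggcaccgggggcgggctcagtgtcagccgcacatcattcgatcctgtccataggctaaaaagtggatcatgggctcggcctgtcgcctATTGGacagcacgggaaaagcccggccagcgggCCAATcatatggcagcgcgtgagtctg
Nsdhl: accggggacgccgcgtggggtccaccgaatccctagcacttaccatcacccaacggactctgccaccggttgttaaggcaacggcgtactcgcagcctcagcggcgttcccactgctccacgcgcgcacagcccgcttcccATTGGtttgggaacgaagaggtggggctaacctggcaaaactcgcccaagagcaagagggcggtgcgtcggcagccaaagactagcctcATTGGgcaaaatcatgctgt
The matches begin 60 and 27 bases before the start in Mvd and 109 and 20 bases before it in Nsdhl. CCAAT on either strand occurred in 18 of 21 sterol gene windows (85.7%), in 15 of 21 fatty acid synthesis windows (71.4%) and in 44.0% of all windows. The sterol regulatory element letters TCACNCCAC were found in 0 of the 21 sterol windows and in 1.36% of all windows.

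Fatty acid synthesis genes showed the same direction, with 6 of 25 higher, 0 lower and a median of 0.50. Scd2, a stearoyl-CoA desaturase that introduces the double bond of oleate (chromosome 19, 44368166 to 44381352), stood at 144 FPKM (87.7 to 200) with BMP-4 and 51.7 FPKM (27.7 to 75.8) with serum, with intervals apart. Its paralog Scd1, which shares sequence with it, stood at 39.7 FPKM with BMP-4 and 12.5 FPKM with serum. The desaturase gene Fads2 stood at 25.5 FPKM with BMP-4 and 9.44 FPKM with serum, the acetyl-CoA synthetase gene Acss2 at 9.53 FPKM with BMP-4 and 2.52 FPKM with serum and the mitochondrial citrate carrier gene Slc25a1 at 61.8 FPKM with BMP-4 and 26.6 FPKM with serum. ATP citrate lyase, Acly, which makes cytosolic acetyl-CoA for both routes, stood at 180 FPKM with BMP-4 and 92.5 FPKM with serum. Not every enzyme shared this direction: Fasn, fatty acid synthase, stood at 32.6 FPKM with BMP-4 and 32.0 FPKM with serum, and malic enzyme Me1 at 12.1 FPKM with BMP-4 and 21.5 FPKM with serum. Of 19 fatty acid oxidation genes 0 were higher or lower, with a median of 0.20.

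Most glycolysis genes had higher values with BMP-4, though few passed 2-fold. Of 26 compared 4 were higher (15.4%, against 3.09% over all genes) and 0 were lower. A positive difference was seen in 21, and the median was 0.42. Triosephosphate isomerase Tpi1 (chromosome 6, 124758959 to 124764314) stood at 416 FPKM (247 to 586) with BMP-4 and 138 FPKM (69.5 to 206) with serum, 3.01-fold higher. The liver-type phosphofructokinase gene Pfkl stood at 117 FPKM (66.4 to 167) with BMP-4 and 41.9 FPKM (20.5 to 63.3) with serum, and the lactate and proton exporter gene Slc16a3 at 15.9 FPKM (4.99 to 26.7) with BMP-4 and 2.35 FPKM (0 to 4.94) with serum. For these 3 genes the intervals lay apart. Aldoc, a brain-type aldolase, stood at 21.2 FPKM with BMP-4 and 3.71 FPKM with serum with overlapping intervals. Smaller differences in the same direction were seen for Pgk1 (570 FPKM with BMP-4 and 287 FPKM with serum), Ldha (827 FPKM with BMP-4 and 490 FPKM with serum), Pkm (2073 FPKM with BMP-4 and 1313 FPKM with serum) and the glucose transporter gene Slc2a1 (146 FPKM with BMP-4 and 90.0 FPKM with serum). Gapdh was nearly level at 1484 FPKM with BMP-4 and 1474 FPKM with serum, and the hexokinase genes Hk2 (85.0 FPKM with BMP-4 and 96.7 FPKM with serum) and Hk1 (16.0 FPKM with BMP-4 and 21.4 FPKM with serum) had lower values with BMP-4.

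Genes known to be induced by hypoxia overlapped with this group. Of 32 compared 7 were higher (21.9%, against 3.09% over all genes) and 0 were lower. A positive difference was seen in 28, and the median was 0.49. Bnip3, a mitophagy receptor (chromosome 7, 146082519 to 146101189), stood at 22.7 FPKM (7.05 to 38.4) with BMP-4 and 1.19 FPKM (0 to 2.85) with serum, 10.8-fold higher with intervals apart, though its transcripts share sequence with other genes. Pdk1, a kinase that shuts pyruvate out of the TCA cycle, stood at 66.1 FPKM with BMP-4 and 28.3 FPKM with serum, the repressor gene Bhlhe40 at 12.7 FPKM with BMP-4 and 3.66 FPKM with serum, and Ndrg1 at 11.02 FPKM with BMP-4 and 3.60 FPKM with serum. The prolyl hydroxylase genes Egln3 (4.02 FPKM with BMP-4 and 1.19 FPKM with serum) and P4ha1 (16.6 FPKM with BMP-4 and 7.75 FPKM with serum) and the annexin gene Anxa2 (25.7 FPKM with BMP-4 and 9.03 FPKM with serum) made up the 7. Ndufa4l2, a mitochondrial protein gene induced by hypoxia that is outside the list and was named after its values were seen, stood at 5.35 FPKM with BMP-4 and was listed at 0 with serum. Vegfa and Hif1a were among the few of the list without a positive difference. Vegfa stood at 4.63 FPKM with BMP-4 and 5.05 FPKM with serum, and Hif1a at 47.1 FPKM with BMP-4 and 50.1 FPKM with serum. Oxygen tension is not stated in the labels for either culture.

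The promoters of Bnip3 and Slc16a3 are shown because these genes have intervals apart and hold the hypoxia response element core ACGTG (GRCm38.p6, 250 bases before the start, matches on either strand in capitals; Bnip3 at chr7:138909507-138909756, minus strand, and Slc16a3 at chr11:120948817-120949066, plus strand).
Bnip3: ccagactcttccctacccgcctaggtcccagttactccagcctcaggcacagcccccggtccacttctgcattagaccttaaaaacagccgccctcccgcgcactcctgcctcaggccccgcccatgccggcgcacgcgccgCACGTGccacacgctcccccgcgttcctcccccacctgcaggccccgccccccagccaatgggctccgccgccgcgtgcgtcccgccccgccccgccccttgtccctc
Slc16a3: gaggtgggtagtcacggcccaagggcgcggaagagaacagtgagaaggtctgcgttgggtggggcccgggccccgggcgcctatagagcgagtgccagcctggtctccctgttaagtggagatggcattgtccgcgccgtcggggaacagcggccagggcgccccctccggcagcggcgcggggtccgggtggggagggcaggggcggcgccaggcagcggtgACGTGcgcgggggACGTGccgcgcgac
In Bnip3 the matches on the 2 strands, from 108 and 107 bases before the start, overlap and form the E-box CACGTG. In Slc16a3 they begin 27 and 14 bases before the start. The core occurred in 21 of 25 windows of the hypoxia list (84.0%), in 15 of 25 glycolysis windows, in 30.7% of all windows and in 26.7% of windows of all higher genes. The E-box, every copy of which holds the core, occurred in 12.6% of all windows. Tpi1, a glycolysis gene with intervals apart, had a window without the core, and the promoters shown were picked for holding it.

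**Figure D3:**
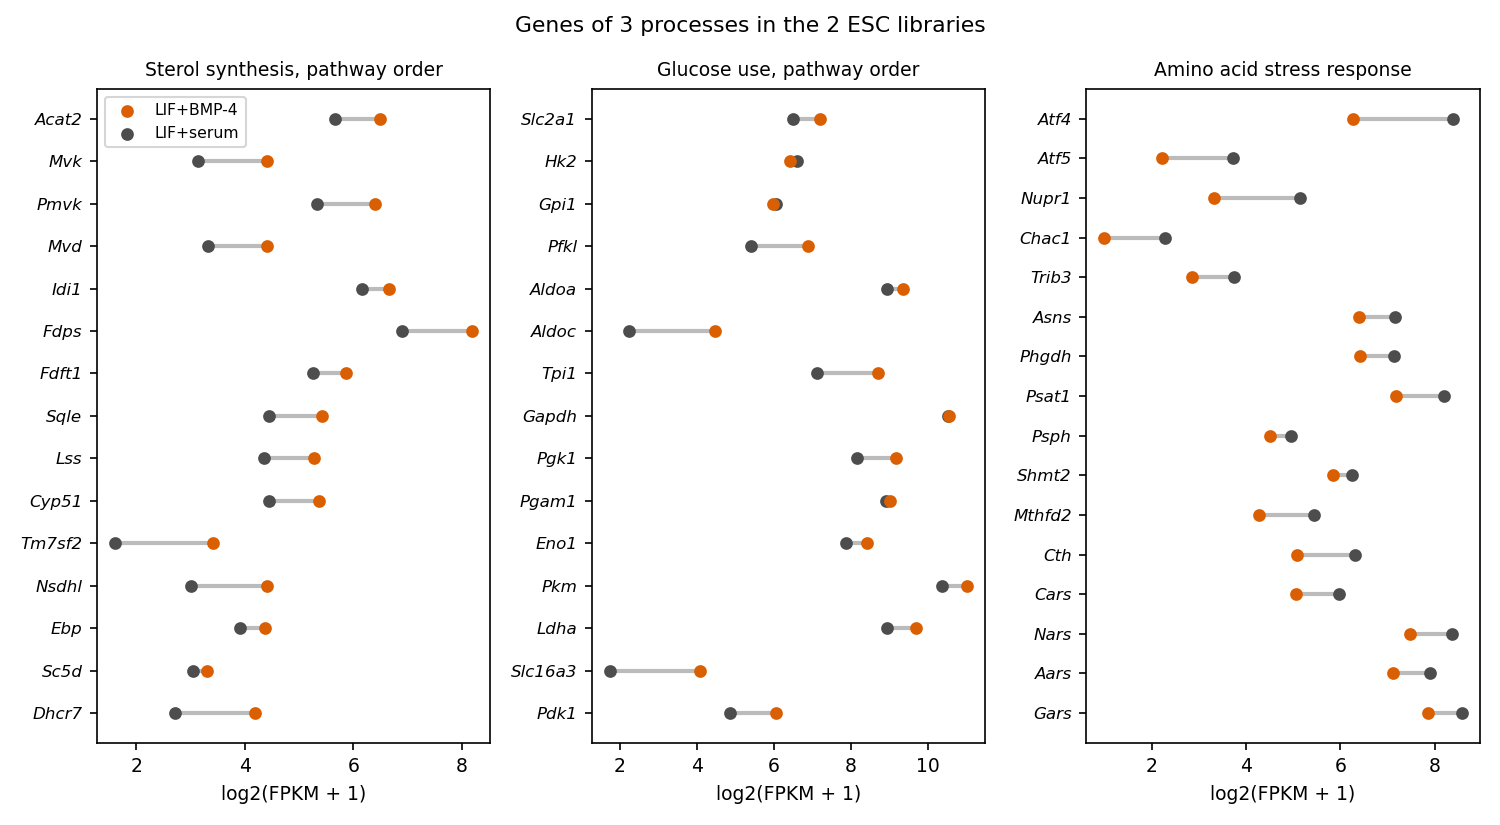
Levels of genes of sterol synthesis, glucose use and the amino acid stress response as log2(FPKM + 1) in ESCs in LIF+BMP-4 (orange) and LIF+serum (grey), 1 library each, joined by a line per gene. The orange point lies to the right for all sterol genes drawn. It lies to the left for all stress response genes drawn, led by Atf4 (75.9 FPKM with BMP-4 and 334 FPKM with serum). In the glucose panel it lies to the right for most genes, such as Tpi1 (416 FPKM with BMP-4 and 138 FPKM with serum). There it nearly meets the grey point for Gapdh and lies to the left for Hk2. The genes drawn were picked from larger lists. Abca1, Eif2ak4 and Eif2ak3, which lay the other way, are not drawn.

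Most genes of the integrated stress response had lower values with BMP-4. In this response, kinases that sense amino acid shortage or other stress phosphorylate eIF2, translation of ATF4 rises, and ATF4 switches on genes of amino acid uptake and synthesis. Of 32 compared genes 7 were lower, 0 were higher, 27 had a negative difference and the median was -0.64. Atf4 itself (chromosome 15, 80085614 to 80087975) stood at 75.9 FPKM (32.4 to 119) with BMP-4 and 334 FPKM (191 to 476) with serum, 4.35-fold lower with intervals apart. Atf5 stood at 3.65 FPKM with BMP-4 and 12.1 FPKM with serum, the stress-induced chromatin protein gene Nupr1 at 8.92 FPKM with BMP-4 and 34.1 FPKM with serum and the glutathione-degrading enzyme gene Chac1 at 0.988 FPKM with BMP-4 and 3.83 FPKM with serum. Cystathionine gamma-lyase Cth, which makes cysteine, stood at 32.6 FPKM with BMP-4 and 77.8 FPKM with serum, the mitochondrial folate enzyme gene Mthfd2 at 18.4 FPKM with BMP-4 and 42.4 FPKM with serum and the serine synthesis gene Psat1 at 145 FPKM with BMP-4 and 291 FPKM with serum. Asparagine synthetase Asns (82.8 FPKM with BMP-4 and 142 FPKM with serum) and the pseudokinase gene Trib3 (6.17 FPKM with BMP-4 and 12.4 FPKM with serum) had the same direction within 2-fold. In the other direction lay the eIF2 kinase genes, Eif2ak4 at 9.68 FPKM with BMP-4 and 6.01 FPKM with serum and Eif2ak3 at 9.16 FPKM with BMP-4 and 7.19 FPKM with serum.

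Aminoacyl-tRNA synthetase genes, many of them ATF4 targets, had 0 of 20 beyond 2-fold, yet 19 of 20 had a negative difference and the median was -0.37. Over all genes the median was -0.06 from 20 to 100 FPKM and -0.11 at 100 FPKM or more. Cars stood at 32.4 FPKM with BMP-4 and 61.5 FPKM with serum, Nars at 176 FPKM with BMP-4 and 329 FPKM with serum and Aars at 138 FPKM with BMP-4 and 239 FPKM with serum, while Farsa stood at 120 FPKM with BMP-4 and 115 FPKM with serum. The promoter of Chac1 is shown as an example with the ATF4 composite element TGATGNAA in capitals, here on the other strand (GRCm38.p6, 250 bases before the start, chr2:119350992-119351241, plus strand).
Chac1: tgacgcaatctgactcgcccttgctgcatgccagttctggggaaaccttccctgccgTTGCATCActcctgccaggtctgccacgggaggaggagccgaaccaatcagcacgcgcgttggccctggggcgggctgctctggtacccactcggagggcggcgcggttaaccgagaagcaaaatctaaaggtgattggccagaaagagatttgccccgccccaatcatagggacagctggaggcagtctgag
The match begins 193 bases before the start. These letters occurred in 7 of 29 windows of the stress response list (24.1%), in 5 of 12 synthetase windows (41.7%), in 7.59% of windows of all lower genes and in 2.54% of all windows. Of 31 genes of the heat shock and chaperone list 1 was higher, Xbp1 (24.0 FPKM with BMP-4 and 9.72 FPKM with serum), 0 were lower, 18 had a positive difference and the median was 0.11. Of 26 p53 response genes 1 was higher, Sesn1 (18.9 FPKM with BMP-4 and 7.35 FPKM with serum), 1 was lower, Perp (5.01 FPKM with BMP-4 and 15.3 FPKM with serum), and the median was -0.34, with 7 genes above 0.

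**Figure D4:**
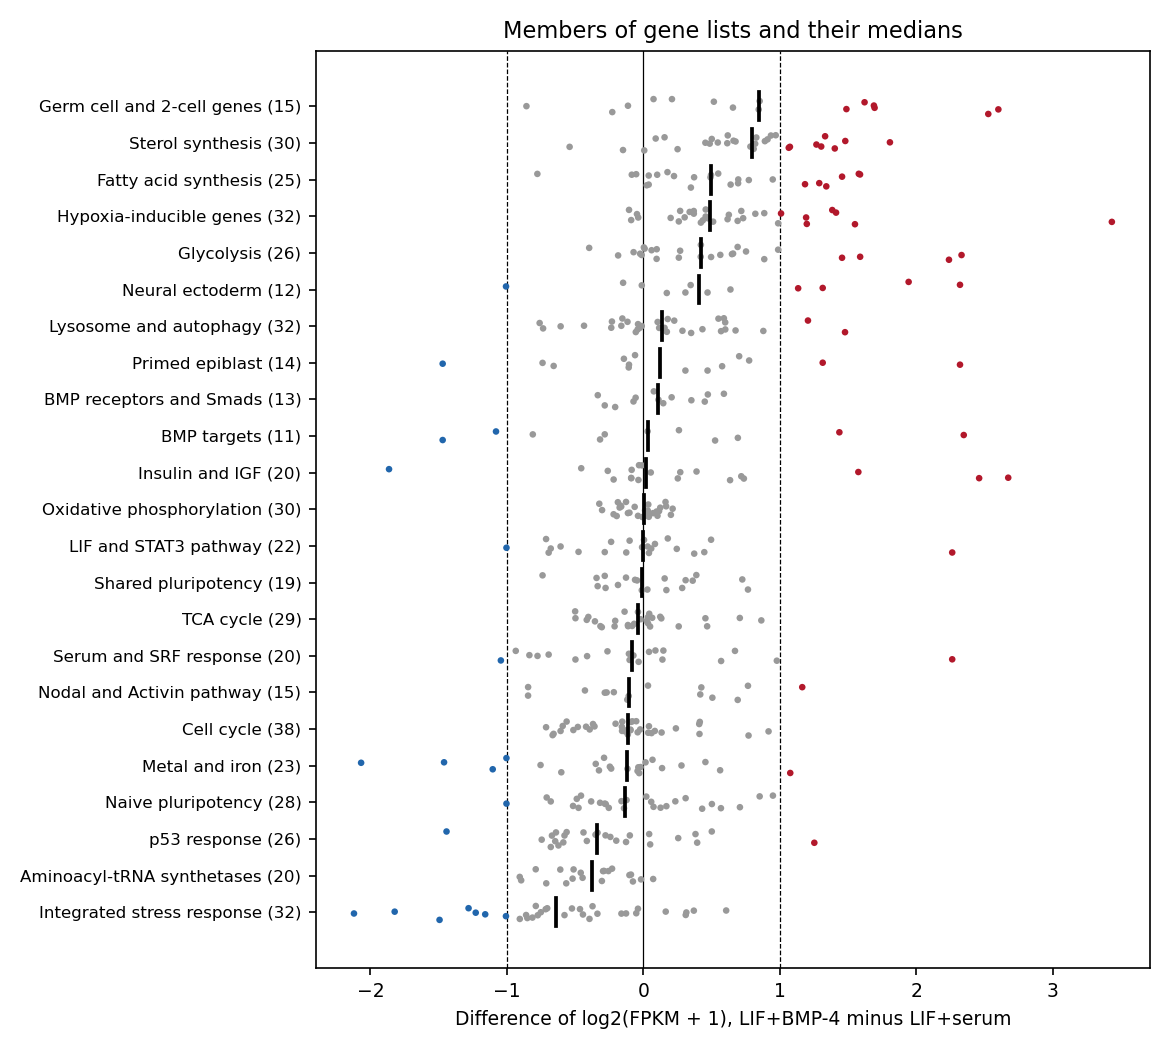
Differences of log2(FPKM + 1), LIF+BMP-4 minus LIF+serum, for the compared members of 23 gene lists, with the number of members in parentheses, a point per gene (scattered vertically for sight), a black bar at each median and dashed lines at 2-fold. Medians run from 0.85 for germ cell and 2-cell genes and 0.80 for sterol synthesis to -0.37 for aminoacyl-tRNA synthetases and -0.64 for the integrated stress response.

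Several transcription factor genes of the neural plate were higher with BMP-4. Of these, Zic2 and Zic5 are also in the primed epiblast list. Of 12 compared neural ectoderm genes 4 were higher (33.3%, against 3.09% over all genes) and 1 was lower (8.33%, against 1.37%). The median was 0.41 (0.17 at a mean of at least 5 FPKM and 0.61 with a pseudocount of 0.1). Zic2 (chromosome 14, 122874606 to 122879550), a zinc finger factor of the epiblast and neural plate, stood at 8.13 FPKM (1.95 to 14.3) with BMP-4 and 0.826 FPKM (0 to 1.94) with serum, with intervals apart, against 41.5 FPKM in untreated EpiSCs. Zic5, which shares sequence with another gene, stood at 6.08 FPKM with BMP-4 and 1.85 FPKM with serum. Pax6 stood at 6.40 FPKM with BMP-4, 0.922 FPKM with serum and 0.279 FPKM in untreated EpiSCs, and Sox21 at 2.59 FPKM with BMP-4, 0.635 FPKM with serum and 0.288 FPKM in untreated EpiSCs. The lower gene was Tubb3, a neuronal tubulin gene, at 35.3 FPKM with BMP-4 and 71.9 FPKM with serum, at the 2-fold limit. The neural markers Pax6 and Sox1 belong to this list, and the part of neural cells in it was not tested. Sox1 was nearly level at 2.62 FPKM with BMP-4 and 2.21 FPKM with serum. Of 14 primed epiblast genes 2 were higher, Zic2 and Zic5, and 1 was lower, Fst, with a median of 0.12 that turned to -0.14 when a mean of at least 5 FPKM was asked for. A positive difference was seen in 7 of the 14. Otx2 stood at 5.83 FPKM with BMP-4, 2.99 FPKM with serum and 30.1 FPKM in untreated EpiSCs. The primed marker Pou3f1 stood at 1.62 FPKM with BMP-4, 1.82 FPKM with serum and 24.4 FPKM in untreated EpiSCs. Fgf5, below the mean for comparison, stood at 0.236 FPKM with BMP-4, 0.0495 FPKM with serum and 133 FPKM in untreated EpiSCs. Among homeobox genes outside these lists, named for its interval, Nkx6-3 (chromosome 8, 24263743 to 24269420) stood at 0.765 FPKM (0 to 1.86) with BMP-4 and 20.7 FPKM (7.08 to 34.4) with serum, 12.3-fold lower, and its paralog Nkx6-2 at 4.46 FPKM with BMP-4 and 15.0 FPKM with serum. Both were at 10 FPKM or more with serum alone.

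Several germ cell genes and genes of the 2-cell embryo were higher with BMP-4, mostly at low levels. Of 15 compared 6 were higher, 0 were lower and the median was 0.85 (0.52 at a mean of at least 5 FPKM). Stra8, a gene needed for entry into meiosis and induced by retinoic acid, stood at 10.4 FPKM with BMP-4 and 0.871 FPKM with serum. Morc1, a germline ATPase that silences transposons (chromosome 16, 48431350 to 48631018), stood at 114 FPKM (62.9 to 165) with BMP-4 and 39.9 FPKM (18.1 to 61.6) with serum, with intervals apart. The Zscan4 genes, which mark a rare 2-cell-like state of ESCs, share sequence with each other: Zscan4f stood at 5.93 FPKM with BMP-4 and 0.201 FPKM with serum, Zscan4d at 3.01 FPKM with BMP-4 and 0.243 FPKM with serum and Zscan4c at 2.75 FPKM with BMP-4 and 0.157 FPKM with serum. In bulk RNA, more cells in that state and more RNA per cell cannot be told apart. Ddx4, a marker of committed germ cells, lay the other way at 11.04 FPKM with BMP-4 and 20.8 FPKM with serum. Sorted by function after the values were seen, the genes beyond 2-fold held 18 higher and 2 lower germline genes, against 314 higher and 125 lower genes in all. How many germline genes were compared is not known from this sort. Among the higher ones were Aurkc (8.10 FPKM with BMP-4 and 0.115 FPKM with serum, sharing sequence), the meiotic recombinase gene Dmc1 (6.89 FPKM with BMP-4 and 1.33 FPKM with serum), Tdrd12 (14.2 FPKM with BMP-4 and 4.07 FPKM with serum) and Gtsf1 (10.3 FPKM with BMP-4 and 2.54 FPKM with serum). The retinoic acid binding protein gene Crabp2 (11.7 FPKM with BMP-4 and 3.14 FPKM with serum) was also higher. Crabp2 and Stra8 were among the 3 higher genes of 11 in the retinoic acid list, which had 1 lower gene, Tgm2 (3.31 FPKM with BMP-4 and 7.63 FPKM with serum, at the 2-fold limit), and a median of -0.04.

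Regulators of insulin-like growth factors lay in both directions. Of 20 genes of the insulin and IGF list 3 were higher (15%, against 3.09% over all genes) and 1 was lower (5%, against 1.37%). All 4 had intervals apart, while the median was 0.02. Igf2bp3, which binds Igf2 and other mRNAs (chromosome 6, 49035217 to 49164953), stood at 31.0 FPKM (14.7 to 47.3) with BMP-4 and 4.01 FPKM (0.733 to 7.29) with serum. The cell surface proteoglycan gene Gpc3 stood at 31.5 FPKM (12.5 to 50.6) with BMP-4 and 4.90 FPKM (0.355 to 9.45) with serum, and the IGF binding protein gene Igfbp2 at 214 FPKM (113 to 314) with BMP-4 and 70.9 FPKM (29.9 to 112) with serum. Grb10, an imprinted adaptor that dampens insulin receptor signalling (chromosome 11, 11830502 to 11937423), was lower, at 12.0 FPKM (4.65 to 19.4) with BMP-4 and 46.3 FPKM (24.2 to 68.5) with serum. Another imprinted gene, Peg10, stood at 5.92 FPKM with BMP-4 and 16.6 FPKM with serum, and these were the 2 lower genes of 23 imprinted genes, of which 0 were higher.

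Genes that respond to serum through SRF gave 1 higher and 1 lower of 20, with a median of -0.09. Cyr61, a matricellular gene also used as a YAP target, stood at 1.25 FPKM with BMP-4 and 3.64 FPKM with serum, and the cytoplasmic actin gene Actg1 at 540 FPKM with BMP-4 and 1033 FPKM with serum, while Actb was level at 849 FPKM with BMP-4 and 869 FPKM with serum and Srf stood at 4.66 FPKM with BMP-4 and 4.11 FPKM with serum. Cytoskeletal genes lay in both directions. Of 35 actin and adhesion genes 2 were higher and 1 was lower, and of 14 keratin and other intermediate filament genes 1 was higher and 2 were lower. Vimentin Vim (chromosome 2, 13495938 to 13504453) stood at 322 FPKM (190 to 455) with BMP-4 and 119 FPKM (61.2 to 177) with serum, with intervals apart, and the microtubule regulator gene Stmn2 at 156 FPKM (84.4 to 228) with BMP-4 and 52.4 FPKM (22.9 to 81.9) with serum, also apart. Vim was also the 1 higher gene of 5 compared in the fibroblast and feeder list, of which 3 had a positive difference and 0 were lower, with a median of 0.41 (0.65 at a mean of at least 5 FPKM and 0.74 with a pseudocount of 0.1). Thy1, a surface protein gene of that list, stood at 4.33 FPKM with BMP-4 and 2.56 FPKM with serum, while the defining markers Col3a1, Postn, Lum and Dcn were listed at 0 in both cultures. The part of such cells in the level of Vim was not tested. The keratin genes Krt8 (11.3 FPKM with BMP-4 and 28.4 FPKM with serum) and Krt17 (8.17 FPKM with BMP-4 and 31.3 FPKM with serum) and the calcium binding protein gene S100a6 (9.73 FPKM with BMP-4 and 38.3 FPKM with serum) were lower. Bex1, a small adaptor protein gene on the X chromosome (132748511 to 132750052), stood at 88.2 FPKM (33.4 to 143) with BMP-4 and 366 FPKM (194 to 538) with serum, 4.11-fold lower with intervals apart, and its relative Bex4 at 229 FPKM with BMP-4 and 476 FPKM with serum.

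The metal and iron list held 1 higher and 4 lower genes among 23. These shares were 4.35% and 17.4%, against 3.09% and 1.37% over all genes. The list median was -0.12 (-0.24 at a mean of at least 5 FPKM). The metallothionein genes Mt1 (43.2 FPKM with BMP-4 and 93.9 FPKM with serum) and Mt2 (112 FPKM with BMP-4 and 310 FPKM with serum), which bind zinc and copper, were lower together with the zinc importer gene Slc39a4 (6.56 FPKM with BMP-4 and 14.1 FPKM with serum, at the 2-fold limit). Transferrin Trf, with shared sequence, stood at 4.48 FPKM with BMP-4 and 22.0 FPKM with serum, and the transferrin receptor gene Tfrc was level at 117 FPKM with BMP-4 and 120 FPKM with serum. The higher gene was the ferrireductase gene Steap3 (2.73 FPKM with BMP-4 and 0.767 FPKM with serum). The quinone reductase gene Nqo1 (11.5 FPKM with BMP-4 and 32.8 FPKM with serum) was the 1 lower gene of 31 oxidative stress genes, and 0 of these were higher. In the lysosome and autophagy list 2 of 32 genes were higher and 0 were lower, with a median of 0.14. Beta-mannosidase Manba, at 127 FPKM (73.1 to 181) with BMP-4 and 45.0 FPKM (22.1 to 67.8) with serum, with intervals apart, was among the higher genes. Uridine phosphorylase Upp1, which releases ribose phosphate from uridine, stood at 238 FPKM (126 to 351) with BMP-4 and 63.5 FPKM (25.5 to 102) with serum, with intervals apart, the only gene beyond 2-fold among 29 genes of pentose phosphate and nucleotide metabolism.

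The genes with intervals apart were then followed in the EpiSC libraries. Of the 18 higher genes Slfn9, Arl14epl, Calcoco2, Morc1 and Manba were under 1 FPKM in all 3 EpiSC libraries. Of the rest, all but Upp1 stood higher in untreated EpiSCs than in ESCs with serum. These were Bnip3, Igf2bp3, Gpc3, Id2, Slc16a3, Zic2, Tpi1, Pfkl, Scd2, Igfbp2, Stmn2 and Vim. All were selected for a value with serum well below that with BMP-4. That choice by itself favours other libraries lying above serum, and the share over all genes was not taken. No likeness of EpiSCs to ESCs with BMP-4 is drawn from it. Tpi1 stood at 624 FPKM in untreated EpiSCs, against 416 FPKM in ESCs with BMP-4 and 138 FPKM in ESCs with serum. Slc16a3 stood at 58.7 FPKM in untreated EpiSCs, 15.9 FPKM in ESCs with BMP-4 and 2.35 FPKM in ESCs with serum. Upp1 was lower in EpiSCs, at 35.7 FPKM. Of the 4 lower genes Grb10 stood at 66.9 FPKM and Atf4 at 202 FPKM in untreated EpiSCs, and Nkx6-3 was listed at 0 there.

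**Figure D5:**
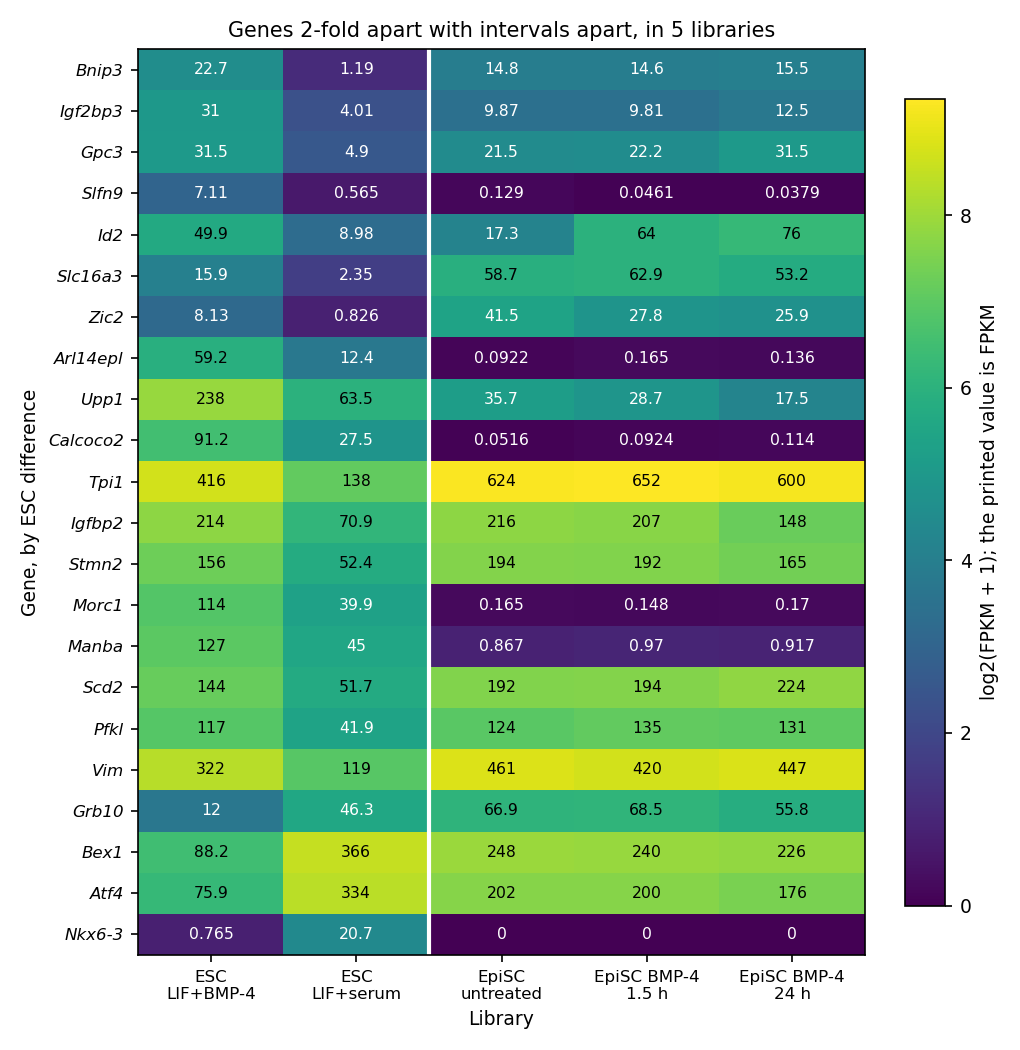
The 22 genes that were at least 2-fold apart with deposited intervals apart between the ESC cultures, in all 5 libraries, 1 library per column, coloured by log2(FPKM + 1) with the FPKM printed. Rows run from the highest difference at the top (Bnip3, 22.7 FPKM with BMP-4 and 1.19 FPKM with serum) to the lowest (Nkx6-3, 0.765 FPKM with BMP-4 and 20.7 FPKM with serum), and 5 of the upper 18 genes are under 1 FPKM in every EpiSC library.

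The comparison of EpiSCs with and without BMP-4 shares no library with that of ESCs. Both EpiSC times were set against the same untreated library, so the times are not independent of each other. In EpiSCs at 24 h 76 genes were higher (0.711% of 10687 compared) and 60 lower (0.561%), and at 1.5 h 26 were higher (0.244% of 10661) and 21 lower (0.197%). Of the 314 higher ESC genes, small RNAs left out, 186 were also compared in EpiSCs at 24 h. Of these 186, 4 were higher there (2.15%, or 16.0% of the 25 higher EpiSC genes compared in both): Id2, the secreted matrix protein gene Coch, Nlrp9b and Olfm2. Over all 9697 genes compared in both settings the share was 0.258% in each direction. A further 3 of the 186 were lower (1.61%, or 12.0% of the 25 lower EpiSC genes), Cbln1, Enpp3 and Ndrg1. Of 89 lower ESC genes compared there, 0 were higher and 4 were lower (4.49%, or 16.0% of the 25 lower EpiSC genes), Btg3, Gm5643, Ntn1 and Penk, of which Btg3 and Gm5643 share sequence with other genes. Across all 186 the median difference at 24 h was -0.01, against -0.00 for all genes compared in both. At 1.5 h 3 of 187 were higher, Id2, Coch and Gm19705 (1.60%, against 0.0620% of the 9678 genes compared in both), and 0 were lower. Of 93 lower ESC genes 2 were lower at 1.5 h, Btg3 and Gm5643 (2.15%, against 0.0413%), and 0 were higher. These 1.5 h overlaps rest on 6 higher and 4 lower EpiSC genes in all. Id2 stood at 17.3 FPKM in untreated EpiSCs, 64.0 FPKM at 1.5 h and 76.0 FPKM at 24 h, so it was higher with BMP-4 in each setting. Id1 stood at 14.1, 184 and 199 FPKM in the same libraries and Id3 at 28.0, 151 and 192 FPKM, while in ESCs with LIF and BMP-4 Id1 stood at 101 FPKM and Id3 at 40.0 FPKM. Bnip3, at 14.8, 14.6 and 15.5 FPKM, and Atf4, at 202, 200 and 176 FPKM, were nearly level over the EpiSC libraries.

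Single genes of immunity, cell death and signalling also lay beyond 2-fold, some of them at low levels or near the limit. Stat2, which carries interferon signals, stood at 14.9 FPKM with BMP-4 and 5.08 FPKM with serum. The interferon-induced membrane protein gene Ifitm1, which shares sequence with another gene, stood at 96.0 FPKM with BMP-4 and 47.5 FPKM with serum, at the 2-fold limit. These were the 2 higher genes of 17 compared in the interferon and antigen presentation list, and the 1 lower gene was B2m, the light chain of class I MHC, at 4.30 FPKM with BMP-4 and 16.2 FPKM with serum. The pro-apoptotic gene Bmf stood at 8.83 FPKM with BMP-4 and 1.55 FPKM with serum and the caspase gene Casp6 at 3.48 FPKM with BMP-4 and 1.04 FPKM with serum, the 2 higher of 22 cell death genes, of which 0 were lower. In that list 10 genes had a positive difference and the median was -0.06. The higher share was 11.8% in the interferon list and 9.09% in the cell death list, from 2 genes each, against 3.09% over all genes. Notch4, a Notch receptor, stood at 4.38 FPKM with BMP-4 and 1.41 FPKM with serum, and it and Hes1 were the genes beyond 2-fold among 10 of the Notch pathway. In the YAP and Hippo list 0 of 23 were higher and 2 were lower, Cyr61 and the TEAD cofactor gene Vgll4 (0.763 FPKM with BMP-4 and 2.70 FPKM with serum). Tuba3a, an alpha tubulin gene that shares sequence with another gene, stood at 16.9 FPKM with BMP-4 and 2.84 FPKM with serum, and the lipogenic gene Thrsp at 3.37 FPKM with BMP-4 and 0.785 FPKM with serum. Named after their values were seen, the growth factor gene Mdk (155 FPKM with BMP-4 and 72.1 FPKM with serum) and the receptor kinase gene Kit (17.7 FPKM with BMP-4 and 8.30 FPKM with serum) were higher, and the hedgehog target Gli1 (1.95 FPKM with BMP-4 and 6.41 FPKM with serum) and the cold-inducible RNA binding protein gene Rbm3 (154 FPKM with BMP-4 and 322 FPKM with serum) were lower.

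Large parts of the transcriptome did not separate the cultures by 2-fold. Oxidative phosphorylation (30 genes, median 0.01), the TCA cycle (29 genes, median -0.04), the cell cycle (38 genes, median -0.11), DNA methylation (16 genes, median 0.08) and Polycomb and chromatin genes (31 genes, median 0.02) each had 0 genes higher and 0 lower. Of 83 cytoplasmic ribosomal protein genes 1 was higher and 0 were lower. Of 15 Wnt pathway genes 1 was lower, Cdx1 (0.402 FPKM with BMP-4 and 2.04 FPKM with serum), and 0 were higher. The values next to the limits show how fine they are. Hspb6, at 0.833 FPKM with BMP-4 and 1.17 FPKM with serum, was just compared and Dazl, at 1.03 FPKM with BMP-4 and 0.963 FPKM with serum, was not. St6gal1 (2.16 FPKM with BMP-4 and 0.581 FPKM with serum) just counted as higher and Trpt1 (2.70 FPKM with BMP-4 and 0.851 FPKM with serum) did not, and Wfdc15a (1.61 FPKM with BMP-4 and 4.22 FPKM with serum) just counted as lower and Nckap1l (2.48 FPKM with BMP-4 and 5.92 FPKM with serum) did not.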

How the data were processed

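The deposited table gives FPKM per gene for 5 libraries, and per the submitters' processing notes the authors used TopHat, Cufflinks 2.0.13, SAMtools and Picard with mm9. Per the file headers, bounds and a status accompany each deposited FPKM. The annotation, any filter and the scaling between libraries were not given in the sources used here. Per the labels' protocols, RNA was selected with oligo-dT and libraries were directional. Starts were written 1-based.

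Where the ESC mean reached 1 FPKM and both statuses were OK (Zfp281 failed), the difference of log2(FPKM + 1) was taken, with the authors' FPKM otherwise unchanged. The arithmetic of this step was checked on a copy of the serum values with set changes and no added noise. That check says nothing of sampling noise or of low levels. The members and 46 gene lists were chosen with earlier results of these data known, and functions were sorted after values were seen. Genes were named when beyond 2-fold with intervals apart, among the 12 highest or lowest at 10 FPKM or more, or as members of the lists, and list examples beyond the first 4 each way were picked after values were seen. Some named or listed genes are not reported here. Sequence sharing (95% identity over 50% of a GENCODE M21 transcript) was found with BLAST 2.17.0 for 48 of 414 genes beyond 2-fold. Promoters come from RefSeq (GRCm38.p6). Python 3.11.15, pandas 2.3.3 and numpy 2.4.6 were used.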

Additional observations from a re-analysis of the deposited data

How the results depend on the processing

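No paired analysis was possible because neither culture was repeated, which also left no replicate to leave out. The counts of genes at least 2-fold higher and lower with BMP-4 (331 and 147) became 574 and 243 with a pseudocount of 0.1 and 92 and 60 with a pseudocount of 5. At a mean of at least 5 FPKM they became 175 and 98, and at a 3-fold limit 85 and 43. Rescaling to equal sums gave 471 and 144, and without a filter on low values, with the mean over 5 libraries, upper quartile scaling, centring, or small RNAs and predicted genes left out, both counts stayed within 1.5 times. So they did (290 and 140) without genes found to share sequence, an alternative chosen after seeing the data. Small RNAs, which were not scanned, stayed in these counts. So did the genes without a scanned transcript, since 414 of 439 had one. At a mean of at least 5 FPKM, which leaves fewer genes in a list, 6 list medians changed sign: BMP antagonists (0.97 against -0.10), Notch pathway (-0.35 against 0.32), primed epiblast (-0.14 against 0.12), YAP and Hippo (0.02 against -0.05), actin and adhesion (-0.02 against 0.07) and shared pluripotency (0.01 against -0.01). Rescaling to equal sums turned 6 medians that lay within 0.1 of 0 (LIF and STAT3 0.06, shared pluripotency 0.05, oxidative stress 0.05, pentose phosphate and nucleotides 0.03, TCA cycle 0.03, YAP and Hippo 0.01), and upper quartile scaling and centring each turned the first 3 of these. Of the 87 genes that the naming rule gave, Tfcp2l1, Slc39a4 and Tubb3 fell just inside 2-fold under all 3 rescalings (Tubb3 -0.95, -0.97 and -0.99) and Tgm2 under upper quartile scaling and centring, and 0 changed sign. The spread between cultures is unknown, and wide intervals limit what can be said below 5 FPKM.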

Other observations

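A run of genes on distal chromosome 4, most of them predicted genes, had higher values with BMP-4. Between mm9 positions 145207049 and 147183897, a stretch chosen after its values were seen, 14 of 15 compared genes had a positive difference and 7 were at least 2-fold higher, with a median of 0.94, against 16 of 683 on the rest of the chromosome and a median there of -0.01. Gm13247 stood at 28.0 FPKM in LIF+BMP-4 and 9.31 FPKM in LIF+serum, Gm13242 at 22.3 FPKM with BMP-4 and 9.07 FPKM with serum and Zfp600 at 9.40 FPKM with BMP-4 and 2.89 FPKM with serum. In untreated EpiSCs Gm13247 stood at 1.68 FPKM, Gm13242 at 0.919 FPKM and Zfp600 at 0.0238 FPKM. Zfp600, Gm13238 and Znf41-ps share sequence with other genes, Gm13139, Gm13152 and Znf41-ps are listed with the same span and Gm13247 with that of another gene, so their values are uncertain. Of the 7 higher genes Gm13242, Gm13247, Gm13251 and Gm13139 were not scanned for shared sequence. The exception was Gm13034, at 22.3 FPKM with BMP-4 and 22.9 FPKM with serum. Over the 20 chromosomes with at least 100 compared genes other than small RNAs, medians ran from -0.05 to 0.02. Across the genome 1 of 273 compared genes with a Zfp symbol was higher and 3 were lower.

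Of 14 compared glutathione transferase genes 4 were higher (28.6%, against 3.09% over all genes) and 0 lower, with a median of 0.36. Gstp1 (24.0 FPKM with BMP-4 and 10.1 FPKM with serum) and Gstp2 (9.90 FPKM with BMP-4 and 2.60 FPKM with serum) share sequence. Gstm7 (4.34 FPKM with BMP-4 and 1.58 FPKM with serum) and Gstk1 (2.87 FPKM with BMP-4 and 0.903 FPKM with serum) made up the 4. Akr1b8, an aldo-keto reductase gene, stood at 64.5 FPKM with BMP-4 and 18.6 FPKM with serum and the epoxide hydrolase gene Ephx2 at 16.2 FPKM with BMP-4 and 3.36 FPKM with serum, while the carbonyl reductase gene Cbr3 stood at 3.56 FPKM with BMP-4 and 15.1 FPKM with serum. Histone genes, whose transcripts mostly lack a poly(A) tail, gave 5 higher and 2 lower among 26, the lower ones being Hist1h2bc (7.57 FPKM with BMP-4 and 54.2 FPKM with serum) and Hist3h2a (0.692 FPKM with BMP-4 and 9.44 FPKM with serum). Of the 439 genes beyond 2-fold that were no small RNAs, 257 could be sorted by function after their values were seen, 180 of them higher and 77 lower. Among these, cytoskeleton and cell junctions held 29 higher and 13 lower, sterol and fatty acid metabolism held 22 higher and 1 lower, glucose metabolism and hypoxia 17 higher and 0 lower, growth factors, receptors and signalling 27 higher and 16 lower, and the integrated stress response with serine or cysteine synthesis 0 higher and 7 lower.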
